A study of Homo sapiens with 36 samples.

Results

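The comparison described here set MEC-1 cells given gapmer 1 against the long non-coding RNA LINC00158 beside cells given a scrambled gapmer in the same experiment. Its members were taken from the sample labels: 3 arrays of gapmer 1 and 3 of the scrambled control, 6 of the 36 arrays of the series. MEC-1 is a widely used human line of B cells that was established from a patient's chronic lymphocytic leukaemia. The series holds 3 experiments, one each for LINC00158, RP11-161H23.5 and CYTOR, and each has a scrambled group, a group for each of a pair of gapmers and a group given both, with 3 arrays a group. All cells, controls included, were left to take up gapmer from the medium by gymnosis, that is, with no carrier. Each gapmer was given at 1 µM and the cells were kept for 4 days, so the combined group received more oligonucleotide in total. The control cells of the LINC00158 experiment are labelled as the control of the LINC00158 silencing. One cell line was used, and nothing in the labels says that the 3 arrays of a group came from separate cultures, so the p-values below measure only the spread between these arrays. The question addressed by the design is which RNAs change when LINC00158 is silenced.

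A gapmer is a short antisense oligonucleotide with a DNA centre and chemically locked ends. When it pairs with an RNA, the DNA stretch recruits RNase H1, which cuts the RNA strand. Because the cut needs only base pairing, gapmers can also act on RNAs other than the intended one, and oligonucleotides can be bound by proteins or sensed by innate receptors, which is why a scrambled oligonucleotide serves as control. The gene lists described below include antigen receptor signalling, antigen presentation by MHC class I and II, interferon-stimulated genes, NF-kB and the cell cycle.

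The arrays report log2 signal for 135750 transcript units, of which 36176 carry a single gene symbol. A unit was tested when its mean over the 12 arrays of the LINC00158 experiment reached that of the median unit (3.97), which kept 67877 units. Each gene was read from its brightest unit, which gave 21090 named genes. Changes are log2 signal of gapmer 1 minus scrambled, and a unit was called when limma's Benjamini-Hochberg adjusted p, taken over all tested units, was under 0.05. The words rose and fell below refer to called units. The cells carried B-cell markers: the scrambled mean log2 signal was 14.11 for CD74, 12.97 for CD79A, 12.04 for BLK, 10.57 for EBF1 and 10.05 for PAX5.

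The 6 arrays did not fall into 2 even groups. Gapmer 1 replicate 1 differed from replicates 2 and 3 by a mean of 0.60 and 0.67 log2 units per unit, whereas replicates 2 and 3 differed from each other by 0.42. Replicate 1 was closer to the 3 scrambled arrays, at 0.51 to 0.54, than to its own group. A second property placed it with the treated arrays. Bright units that reached the ceiling on no array were compared, 3718 in all. Of these, 8.61 to 9.41% had identical values in any pair of scrambled arrays. Replicate 1 shared 0.753 to 0.780% with the scrambled arrays but 3.98 to 6.27% with the other treated arrays of the experiment. Replicates 2 and 3 shared 0.108 to 0.296% with the scrambled arrays. The scrambled arrays and the treated arrays therefore form separate sets by their identical values, and set and treatment cannot be told apart in this comparison. For this reason the calls were also counted after quantile normalization of the 12 arrays and without replicate 1. They were counted as well with the scrambled arrays of the other experiments, called the RP11-161H23.5 and CYTOR controls here. These controls were compared in a fit over all 36 arrays. That fit gave 13297 called units with the own controls, against 7351 in the fit of 12 arrays. Treatment and experiment cannot be told apart with controls of another experiment.

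LINC00158, on chromosome 21, was lower with gapmer 1. Its log2 signal (unit TC2100007784.hg.1) was 8.80, 7.5 and 7.51 on the scrambled arrays and 5.73, 5.22 and 5.77 on the gapmer 1 arrays. The groups did not overlap, and replicate 1 lay between the other gapmer 1 arrays. The change was -2.36 (SE 0.39, limma adjusted p = 0.0071), -2.09 after quantile normalization (adjusted p = 0.0100) and -2.44 without replicate 1 (adjusted p = 0.00399). A fit on these 6 arrays alone gave adjusted p = 0.065, and the exact two-sided permutation test of 3 against 3 gave p = 0.1, the smallest it allows. LINC00158 averaged 6.01 ± 0.41 (SD, n = 3) with gapmer 2 and 5.32 ± 0.52 (SD, n = 3) with both gapmers. Outside its own experiment the same unit averaged 5.65 ± 0.28 (SD, n = 3) with gapmer 1 against RP11-161H23.5, where the scrambled arrays averaged 6.80 ± 0.58 (SD, n = 3). In that experiment it was also lower with gapmer 2, at 5.46 ± 0.30 (SD, n = 3), and with both gapmers, at 5.36 ± 0.27 (SD, n = 3). In the CYTOR experiment it was 7.09 ± 0.73 (SD, n = 3) on the scrambled arrays, 7.22 ± 0.53 (SD, n = 3) with gapmer 1, 6.05 ± 0.28 (SD, n = 3) with gapmer 2 and 5.88 ± 0.31 (SD, n = 3) with both. The scrambled arrays of the LINC00158 experiment had the highest mean of the 12 groups, and against those of the other experiments the change with LINC00158 gapmer 1 was smaller, at -1.23 for RP11-161H23.5 (limma adjusted p = 0.03) and -1.52 for CYTOR (adjusted p = 0.00661).

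Of the 10 single-symbol genes within 500 kb of LINC00158, 8 passed the signal filter. ATP5PF, a subunit of mitochondrial ATP synthase, fell by 1.04 (limma adjusted p = 0.0428), from 18.14, 17.45 and 17.61 to 17.33, 16.16 and 16.59. JAM2, a junctional adhesion molecule, fell by 0.91 (adjusted p = 0.0350). Neither call held after quantile normalization, where the changes were -0.48 (adjusted p = 0.203) and -0.42 (adjusted p = 0.241). APP, GABPA, MRPL39, LINC00515, RNGTTP1 and RPL13AP7 were not called, with changes from -1.02 for RPL13AP7 to 0.47 for LINC00515. Without replicate 1, APP (-1.51, adjusted p = 0.0137), MRPL39 (-1.38, adjusted p = 0.0233) and RPL13AP7 (-1.88, adjusted p = 0.0066) were called lower as well. None of these 3 was called when quantile normalization was added. Of all named genes 28.4% were called lower without replicate 1.

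Across all tested units 7351 (10.8%) were called, 3085 higher (4.54%) and 4266 lower (6.28%), and 4848 of them changed at least 2-fold. The arrays read the RNA of whole cultures, so fewer cells of a kind and less RNA per cell cannot be told apart. Among named genes the balance was more one-sided: 601 were higher (2.85%) and 1837 lower (8.71%), and the median change of all named genes was -0.29. Quantile normalization brought the median of all units from -0.11 to 0.0004 and that of named genes to -0.12. It left 720 named genes higher (3.41%) and 1015 lower (4.81%). Of the units, 2993 of the 3085 higher and 2453 of the 4266 lower calls held after quantile normalization, and none turned. Without replicate 1 the calls numbered 17407 units (25.6%), with 1047 named genes higher (4.96%) and 5992 lower (28.4%), and quantile normalization of those arrays left 1375 higher (6.52%) and 2743 lower (13%). Leaving out another array instead gave 2133 to 3442 called units, and a fit on the 6 arrays alone gave 164 (0.242%). The calls also depended on the control arrays. Of the 601 higher named genes 281 (46.8%) were called higher with the RP11-161H23.5 controls and 399 (66.4%) against the CYTOR ones. Of the 1837 lower named genes 616 (33.5%) and 1021 (55.6%) were called lower against them.

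Much of the downward shift followed signal level and was carried by replicates 2 and 3. Among named genes under 5 log2 units, the median change was -0.04, -0.09 and -0.18 in replicates 1, 2 and 3. Among those from 12 to 14 it was -0.10, -1.35 and -1.30. Quantile normalization reduced the latter to 0.02, -0.33 and -0.26. Lower calls were correspondingly frequent among bright genes: 494 of 8297 genes under 5 fell, against 194 of 982 from 10 to 12. After quantile normalization those counts were 373 and 56. The shares of gene lists below are set against all named genes, not against genes of matched signal.

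**Figure D1:**
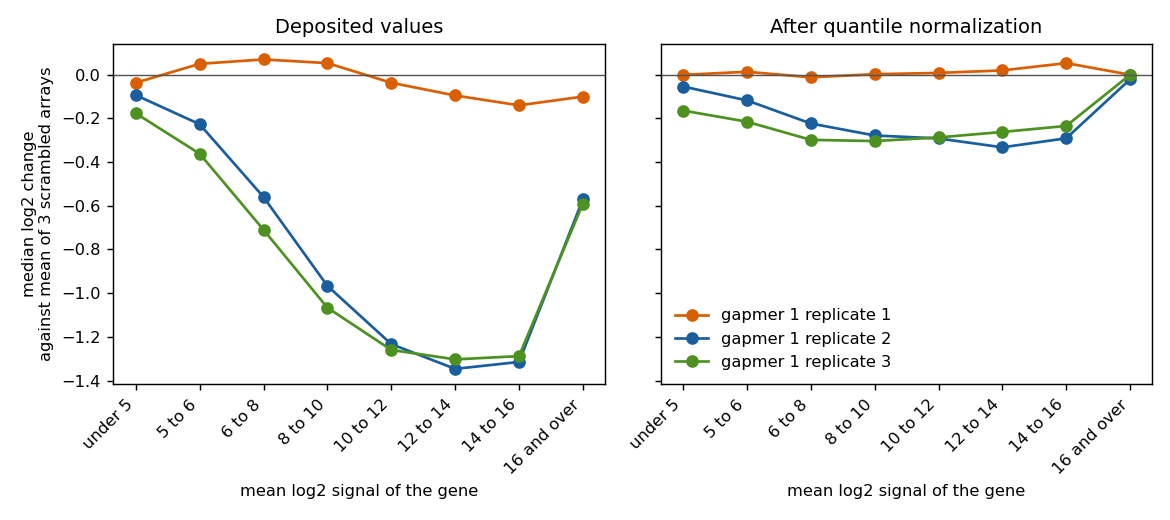
Median log2 change of named genes on each gapmer 1 array against the mean of the 3 scrambled arrays (vertical axis), by mean log2 signal (horizontal axis), for the deposited values (left) and after quantile normalization (right). Replicate 1 stays between -0.14 and 0.07 at every level, while replicates 2 and 3 reach -1.35 and -1.30 on the left and shrink on the right.

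How far replicate 1 followed the other arrays differed between genes. Its change and that of replicates 2 and 3 are both taken against the same 3 scrambled arrays, which also chose the units, so the counts that follow describe these arrays and test nothing. Of the 17407 units called without it, it lay on the same side of the scrambled mean in 13258 (76.2%) and beyond all 3 scrambled arrays in 10222 (58.7%). Its change was a median share of 0.305 of that in replicates 2 and 3, 0.496 for higher units and 0.231 for lower ones. Its share was 0.75 or more in 3396 units and under 0.25 in 7856. LINC00158 (share 0.904), PCBP1 (0.861), RN7SKP204 (0.865), SOX10 (1.00) and RB1 (0.876) changed nearly as much in replicate 1 as in the other arrays. HLA-B (0.118), HLA-DRA (0.123), RPL18 (0.103), CDK6 (0.101) and IL1RN (0.0617) moved little in it.

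**Figure D2:**
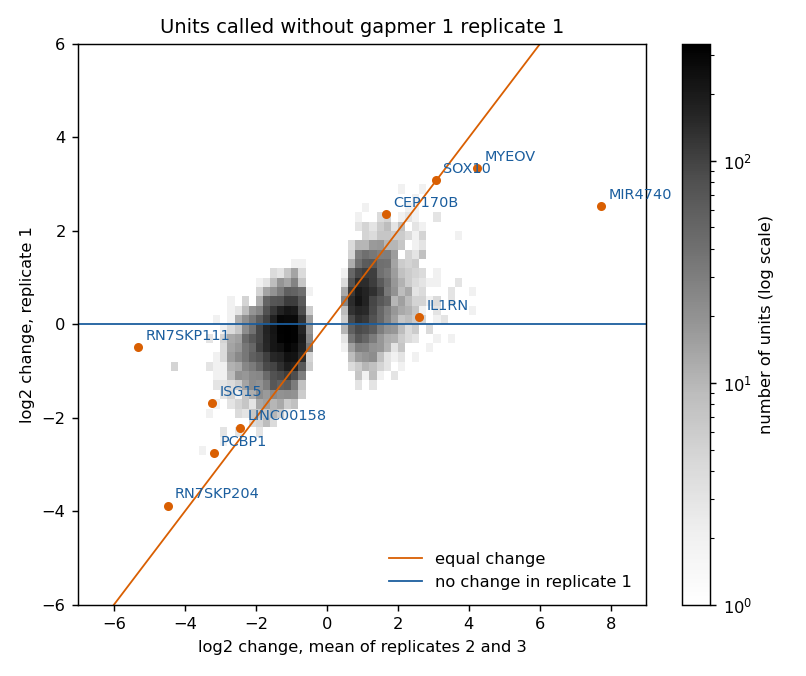
Log2 change in gapmer 1 replicate 1 (vertical axis) against the mean log2 change of replicates 2 and 3 (horizontal axis) for the 17407 units called without replicate 1, as counts in bins of a log grey scale, with 10 named genes in orange. The orange line marks equal change and the blue line no change in replicate 1. The densest bins lie between the lines, while SOX10, PCBP1 and RN7SKP204 lie near the orange one.

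Genes were singled out when they were called, were called the same way after quantile normalization and without replicate 1, and had all 3 gapmer 1 arrays on one side of the scrambled arrays. This left 546 higher and 1004 lower named genes, with 142 and 683 protein-coding genes among them. Of the higher ones 259 (47.4%), and of the lower ones 427 (42.5%), were also called with the RP11-161H23.5 controls. Over all named genes, all gapmer 1 arrays lay above all scrambled arrays in 8.44% and below them in 20.7%.

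Among protein-coding genes, the largest increases included several that were close to the lower end of the signal range in control cells. MYEOV, a gene known for overexpression in some myelomas, was 5.45, 5.43 and 5.78 on the scrambled arrays and 8.89, 9.64 and 9.95 on the gapmer 1 arrays. It rose by 3.94 (SE 0.30, limma adjusted p = 0.000139). SOX10, a transcription factor of neural crest and glial cells, went from 4.63, 4.51 and 4.72 to 7.71, 7.63 and 7.76. It rose by 3.08 (SE 0.27, adjusted p = 0.000277), and its 3 gapmer 1 arrays lay within 0.2 of each other. The groups were well apart for both genes, and for MYEOV replicate 1 was the lowest gapmer 1 array. STYXL2, a pseudophosphatase, rose by 2.05 (adjusted p = 0.00118) and EFHD1, a mitochondrial calcium-binding protein, by 2.03 (adjusted p = 0.00387). CEP170B, related to the centrosomal protein CEP170, went from 4.25, 4.27 and 4.19 to 6.59, 5.99 and 5.83, so replicate 1 was its highest array. OBP2B, a lipocalin, rose by 1.85 and KANTR by 1.71 (adjusted p = 0.00200 and 0.00386).

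Other increases were less even. JAZF1, a zinc finger protein, rose by 2.32 (SE 0.37, limma adjusted p = 0.00652) and TOX2, an HMG-box factor, by 1.71 (adjusted p = 0.0125). RFX3, a transcription factor of ciliated cells, was 7.52, 7.80 and 8.92 in the controls and 9.07, 10.37 and 10.42 with gapmer 1, so the groups were separated by only a small gap. IL1RN, the interleukin-1 receptor antagonist, was 4.10, 4.02 and 4.12 against 4.24, 6.61 and 6.74. Its increase of 1.78 (adjusted p = 0.0466) rested on replicates 2 and 3. Second units of MYEOV, JAZF1, RFX3 and TOX2 moved the other way, by -0.78, -0.41, -0.37 and -0.22, and were not called higher, and the tested units of OBP2B ran down to -0.24, so the units of these genes disagree. Against the scrambled arrays of the RP11-161H23.5 experiment, MYEOV (3.33), SOX10 (2.74) and CEP170B (1.61) stayed higher, whereas TOX2 was at 0.94, JAZF1 at 0.23, IL1RN at 0.18 and RFX3 at -0.11, not called.

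PCBP1, a poly(C)-binding protein that acts in mRNA stability and translation, had the largest decrease among singled-out protein-coding genes. It was 15.47, 15.51 and 15.48 on the scrambled arrays and 12.74, 12.25 and 12.34 on the gapmer 1 arrays. It fell by 3.04 (SE 0.17, limma adjusted p = 2.09e-05), by 2.29 after quantile normalization (adjusted p = 0.000301), with all arrays of a group close together. COX8A, a subunit of cytochrome c oxidase, fell by 2.80 (adjusted p = 0.0199) and the linker histone gene H1-4 by 2.79 (adjusted p = 0.00718). MAP2K2, the kinase MEK2, went from 11.79, 11.85 and 11.58 to 10.69, 8.20 and 8.29. It fell by 2.68 (adjusted p = 0.0140), and replicate 1 lay between the other arrays and the controls. ARL2, a GTPase of tubulin folding, fell by 2.58 (adjusted p = 0.00217), DCAF7, a WD-repeat scaffold, by 2.54 (adjusted p = 0.0100), and UTRN, the dystrophin-related utrophin, fell by 2.43 (adjusted p = 0.00386). UBB, a polyubiquitin gene, fell by 2.36 (adjusted p = 0.0251). ACTG1, UBB and H1-4 have near-identical family members, so their signal may include them. MAP2K2, COX8A and ACTG1 were no longer called against the scrambled arrays of the RP11-161H23.5 experiment, where their changes were -0.79, -0.97 and -0.89, while PCBP1 (-2.81), UTRN (-2.64) and ARL2 (-2.08) were.

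**Figure D3:**
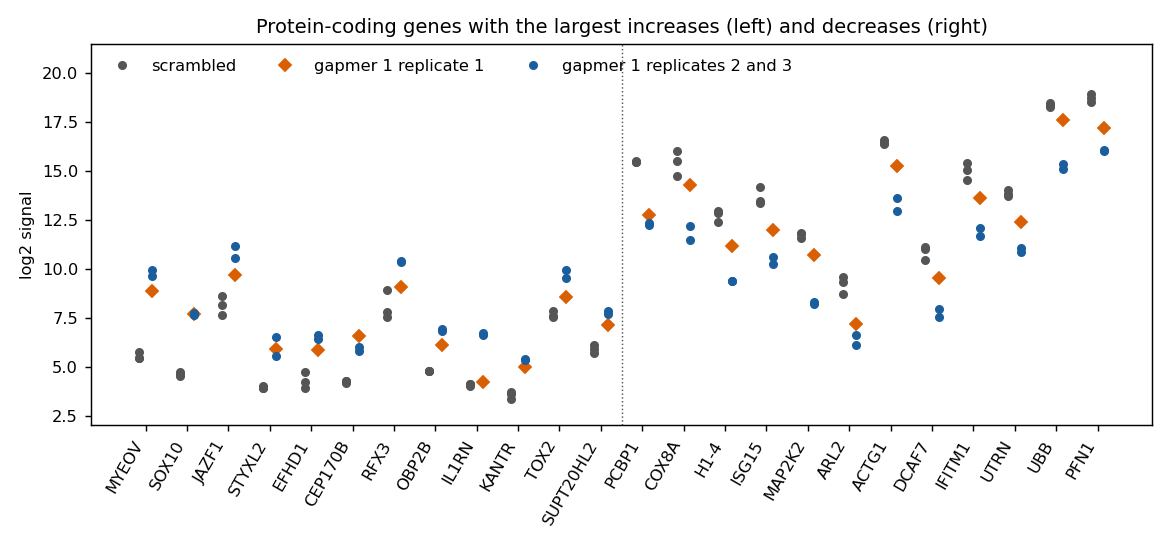
Log2 signal (vertical axis) of the 12 protein-coding genes with the largest increases (left of the dotted line) and the 12 with the largest decreases (right) on each array. Grey circles are the 3 scrambled arrays, orange diamonds gapmer 1 replicate 1 and blue circles replicates 2 and 3. SOX10 and PCBP1 show 3 gapmer 1 arrays together, and in MAP2K2 and UBB replicate 1 lies nearer to the controls.

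Interferon-stimulated genes were among the lower ones. Of 36 tested members, 7 fell (19.4%), against 8.71% of all named genes, and the list's median change was -0.75 against -0.29. ISG15, a ubiquitin-like protein, was 14.17, 13.48 and 13.39 in the controls and 12, 10.27 and 10.63 with gapmer 1. It fell by 2.71 (SE 0.45, limma adjusted p = 0.00769) and by 2.03 after quantile normalization (adjusted p = 0.0077). IFITM1, a membrane protein that restricts viral entry, was 15.43, 15.04 and 14.55 against 13.61, 11.70 and 12.11. It fell by 2.53 (adjusted p = 0.0117). For both genes all gapmer 1 arrays were below all controls, with replicate 1 the highest of its group. IFI44L fell by 2.16 (adjusted p = 0.0354), MX1, a dynamin-like antiviral GTPase, by 1.38 (adjusted p = 0.0400), IFI27 by 1.31, OAS2, an oligoadenylate synthetase, by 1.13 and IFIT2 by 0.88. After quantile normalization ISG15, IFITM1, IFI27 and IFIT2 remained called, with a list median of -0.43 against -0.12. Without replicate 1, 22 members fell, and 11 when quantile normalization was added, against 28.4% and 13% of all named genes. Of the 7, only ISG15 (-1.49, adjusted p = 0.00859) and IFITM1 (-1.55, adjusted p = 0.0112) were called with the RP11-161H23.5 controls. IFIT1 (0.11), OASL (0.19), IFI35 (0.19), EPSTI1 (0.32) and GBP1 (0.71) had positive changes that were not called.

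The promoters of ISG15 and IFITM1 are shown because both are textbook interferon targets that fell. RefSeq's sequences (build GRCh38.p14) for the 250 bases before the gene start are printed 5′ to 3′ on the gene's strand, and capitals mark the letters GAAANNGAAA, the core of the interferon-stimulated response element, searched on both strands.
ISG15 promoter, chr1:1013247-1013496, plus strand: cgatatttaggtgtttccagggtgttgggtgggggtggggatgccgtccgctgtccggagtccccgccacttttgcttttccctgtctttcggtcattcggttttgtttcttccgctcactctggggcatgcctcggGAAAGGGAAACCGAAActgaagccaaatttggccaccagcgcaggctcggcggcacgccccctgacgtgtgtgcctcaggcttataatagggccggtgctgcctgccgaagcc
IFITM1 promoter, chr11:313790-314039, plus strand: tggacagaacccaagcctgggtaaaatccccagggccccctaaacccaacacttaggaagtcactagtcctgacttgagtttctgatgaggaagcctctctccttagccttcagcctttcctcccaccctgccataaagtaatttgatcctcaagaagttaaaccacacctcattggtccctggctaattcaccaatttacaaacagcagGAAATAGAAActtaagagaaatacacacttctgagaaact
ISG15 held 2 overlapping matches and IFITM1 held 1. The letters occurred in 62.1% of the 29 promoters found for the interferon list, in 3.07% of all 27305 promoters in the table and in 2.87% of the 10404 found for tested protein-coding genes. Of the 581 promoters found for the singled-out lower protein-coding genes, 2.93% held them, and of the 114 for higher genes 2.63%.

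In the deposited values, the antigen presentation lists had the lowest medians of the 35 lists. Of 19 MHC class I members 5 fell (26.3%), with a median of -1.15, and of 17 class II members 5 fell (29.4%), with a median of -1.09, against 8.71% and -0.29 over all named genes. After quantile normalization 3 and 2 were called lower, against 4.81% of all named genes, and the medians were -0.63 and -0.55. These lists are bright, with median signals of 9.54 and 10.22. Named genes from 8 to 10 shifted by a median of -0.97 and -1.07 in replicates 2 and 3, and those from 10 to 12 by -1.23 and -1.26, and the part of signal level in these counts was not tested. HLA-E, a non-classical class I molecule, was 11.07, 11.30 and 10.88 against 10.37, 8.23 and 8.39. It fell by 2.09 (SE 0.46, limma adjusted p = 0.0211), and by 1.53 after quantile normalization (adjusted p = 0.0206). HLA-C fell by 1.79 (adjusted p = 0.0186). PSMB10, an immunoproteasome subunit, fell by 2.09 (adjusted p = 0.0318), and TAPBP, the peptide-loading chaperone tapasin, by 1.75 (adjusted p = 0.0327). HLA-B was 13.98, 13.91 and 13.24 against 13.32, 10.05 and 10.78. Its change of -2.33 was just under the threshold (adjusted p = 0.0496), the groups overlapped through replicate 1, and after quantile normalization it was -1.63 (adjusted p = 0.0641). With the RP11-161H23.5 controls HLA-E (-1.60) and HLA-C (-1.31) stayed called, while TAPBP (-0.38), PSMB10 (0.12) and HLA-B (-1.22) did not.

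In class II, HLA-DRB5, a beta chain of HLA-DR, was 11.51, 11.08 and 11.13 against 10.24, 8.23 and 8.81. It fell by 2.15 (SE 0.41, limma adjusted p = 0.0127) and by 1.57 after quantile normalization (adjusted p = 0.0111). CIITA, the master coactivator of class II genes, fell by 1.65 (adjusted p = 0.0409), HLA-DMB, which edits peptide loading, fell by 1.64 (adjusted p = 0.0448), HLA-DRA by 1.17 (adjusted p = 0.0471) and HLA-DOB by 1.08 (adjusted p = 0.0305). Only HLA-DRB5 and HLA-DOB of these 5 remained called after quantile normalization, and HLA-DRB5, HLA-DMB and HLA-DRA were called with the RP11-161H23.5 controls. The invariant chain CD74 was 14.09, 14.07 and 14.18 against 14.21, 12.88 and 13.20 and was not called (-0.68, adjusted p = 0.227). Without replicate 1, 13 class I and 15 class II members fell, and 10 and 11 after quantile normalization as well. Of all named genes 28.4% and 13% fell in these settings. HLA genes are near-identical in parts, so the arrays may not fully separate them.

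The upstream sequences of HLA-DRB5 and HLA-B are shown because each carries promoter letters known from its class. Capitals mark CTGATTGG, the Y box, and GGGNNTTCC, an NF-kB motif, both searched on both strands.
HLA-DRB5 promoter, chr6:32530288-32530537, minus strand: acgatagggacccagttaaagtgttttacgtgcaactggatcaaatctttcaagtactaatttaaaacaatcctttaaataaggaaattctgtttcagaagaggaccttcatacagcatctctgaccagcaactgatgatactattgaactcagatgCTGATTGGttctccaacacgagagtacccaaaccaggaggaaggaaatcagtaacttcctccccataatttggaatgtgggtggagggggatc
HLA-B promoter, chr6:31357180-31357429, minus strand: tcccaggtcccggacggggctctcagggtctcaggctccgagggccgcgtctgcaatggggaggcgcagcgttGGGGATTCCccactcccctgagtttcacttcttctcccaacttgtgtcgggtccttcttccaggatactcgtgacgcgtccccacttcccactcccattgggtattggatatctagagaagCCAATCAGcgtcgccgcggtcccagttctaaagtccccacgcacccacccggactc
HLA-DRB5 held 1 Y box. HLA-B held 1 Y box and 1 NF-kB match. Y box letters occurred in 35.7% of 14 class II promoters and 25% of 16 class I promoters found, in 3.98% of all promoters and in 5.37% of those of tested protein-coding genes. Singled-out lower protein-coding genes held them in 6.02% and higher ones in 7.02%. NF-kB letters occurred in 5.81% of all promoters, in 7.05% of those of tested protein-coding genes, in 8.78% of those of singled-out lower genes and in 9.65% of those of higher genes.

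Of 18 B-cell receptor genes 3 fell (16.7%, against 8.71% of all named genes), with a median of -0.97. PIK3CD, the leukocyte catalytic subunit of PI3-kinase, was 9.84, 9.35 and 9.31 against 8.81, 7.27 and 7.41, and fell by 1.67 (SE 0.39, limma adjusted p = 0.0245). LYN, a Src-family kinase, fell by 1.64 (adjusted p = 0.0313). INPP5D, the phosphatase SHIP1, fell by 1.34 (adjusted p = 0.0461) but not after quantile normalization (-0.59, adjusted p = 0.153). None of the 3 was called with the RP11-161H23.5 controls, where PIK3CD was level (0, adjusted p = 1), LYN was at -0.61 and INPP5D at -0.78, and PIK3CD was not called with the CYTOR controls either (-0.82). Of 20 B-cell identity genes 2 fell (10%, near the share over all named genes): CD37, a tetraspanin, by 1.99 (adjusted p = 0.0217) and IKZF3, the transcription factor Aiolos, by 1.16. Neither was called with the RP11-161H23.5 controls (-0.68 and -0.46). The markers CD74, CD79A, CD79B, BLK, EBF1, MS4A1 and PAX5 were not called with all arrays. All were called lower without replicate 1, as were 28.4% of all named genes. With quantile normalization added, only CD79A (-1.09, adjusted p = 0.0184) and PAX5 (-0.82, adjusted p = 0.0339) stayed called. For CD79A, a chain of the receptor's signalling unit, replicate 1 was at 13.28, above the controls at 13.20, 12.78 and 12.94, while replicates 2 and 3 were at 10.66 and 11.05.

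Of 25 NF-kB genes 5 fell (20%, against 8.71% of all named genes): LTB, CHUK, NFKB1, NFKB2 and REL, with changes of -1.5, -1.29, -1.31, -1.21 and -1. NFKB2, the precursor of p52, was 6.69, 6.77 and 6.57 against 6.21, 5.18 and 5 (limma adjusted p = 0.0229). CHUK, NFKB1 and NFKB2 remained called after quantile normalization. With the RP11-161H23.5 controls only REL was called (-1.17), while NFKB1 was at -0.01, NFKB2 at -0.20, CHUK at -0.57 and LTB at -0.63. Among 18 activation genes, TNFRSF8 (CD30) fell by 1.52, DUSP2, a phosphatase of MAP kinases, by 1.28 and BATF by 1.13. None of these 3 was called against either other set of scrambled arrays, where their changes ran from -0.29 to 0.29. Among 14 plasma cell genes, PRDM1, the repressor Blimp-1, fell by 1.65 (adjusted p = 0.0101) and SDC1 by 0.89, of which PRDM1 was called with the RP11-161H23.5 controls (-2.05). Of 19 homing genes, S1PR2, a sphingosine-1-phosphate receptor, fell by 2.03 (adjusted p = 0.0277), CD99 by 1.58 (adjusted p = 0.00937) and S1PR4 by 0.91, and none of the 3 was called with the same controls. Of 17 nucleic acid sensors TLR7 fell by 1.47 (adjusted p = 0.0380), and of 9 CLL surface markers CD27 by 1.48 (adjusted p = 0.0436). These counts are 5.88% and 11.1%, near the share over all named genes. Neither gene stayed called after quantile normalization (-1.22 and -0.79) or with the RP11-161H23.5 controls (-0.59 and -0.56).

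Mitosis and DNA replication genes lay close to all named genes once quantile normalized. Of 35 mitosis genes 5 fell (14.3%, against 8.71% of all named genes), with a median of -0.56 that became -0.12, which rounds to the value over all named genes. The median signal of the list was 8.16, and 311 of 2231 named genes from 8 to 10 fell. CCNB1, cyclin B1, fell by 1.72 (limma adjusted p = 0.0278), CENPA, the centromeric histone, fell by 1.39 (adjusted p = 0.00699) and MKI67 by 1.26 (adjusted p = 0.0440). CENPA was 6.63, 6.22 and 6.36 against 5.40, 4.79 and 4.84, and it alone of the 5 remained called after quantile normalization, while CENPA and CCNB1 were called with the RP11-161H23.5 controls. Of 34 replication genes 5 fell (14.7%: RFC2, RFC3, POLD1, POLA2 and FEN1), with a median of -0.61 that became -0.22. RFC2 (-1.5) and POLD1 (-1.16) remained called after quantile normalization, and neither was called with the RP11-161H23.5 controls (-0.49 and 0.37). In the G1/S list of 19, RB1, the retinoblastoma protein that holds cells in G1, was 8.09, 8.11 and 8.50 against 6.86, 6.78 and 6.55. It fell by 1.5 (SE 0.18, adjusted p = 0.00151), with all arrays of a group together. CDK6, the kinase that phosphorylates it, was 10.18, 10.18 and 9.98 against 9.87, 7.66 and 7.76 (-1.68, adjusted p = 0.0445), so its decrease rested on replicates 2 and 3. With the RP11-161H23.5 controls RB1 stayed called (-0.92) and CDK6 did not (-0.11), and with the CYTOR controls RB1 was not called (-0.48).

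Of 25 replication-dependent histone genes 7 fell (28%, against 8.71% of all named genes), with a median of -0.94 (-0.44 after quantile normalization). The list is bright, with a median signal of 11.62. Among all named genes from 10 to 12, 194 of 982 fell and the median change was -0.86. H2BC7 fell by 1.85 (limma adjusted p = 0.0114), H2AC13 fell by 1.65 and H2AC6 fell by 1.64. H1-4, H2BC7 and H2AC6 remained called after quantile normalization and with the RP11-161H23.5 controls. Of 18 p53 targets 1 fell (5.56%), AEN, an exonuclease, by 0.97. Of 22 BCL2-family and caspase genes, MCL1, the short-lived survival protein, fell by 1.30 (adjusted p = 0.00749), XIAP, a caspase inhibitor, by 0.96 and CASP9 by 0.85. MCL1 was 8.87, 8.22 and 8.60 against 7.63, 7.14 and 7.02, and remained called after quantile normalization (-0.95) and against both other sets of scrambled arrays (-0.99 and -1.06).

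Stress and protein quality lists differed in how many members fell, set against 8.71% of all named genes. Of 27 integrated stress response genes 8 fell (29.6%), with a median of -0.79 (-0.41 after quantile normalization). SLC3A2, the heavy chain of amino acid transporters, fell by 1.75 (limma adjusted p = 0.0177), SHMT2 by 1.71, WARS1 by 1.51, AARS1 by 1.37, CEBPG by 1.36 and MTHFD2 by 1.34. After quantile normalization 4 of the 8 stayed called, and 3 were called with the RP11-161H23.5 controls, where SLC3A2 (0.04) and MTHFD2 (0.07) were level. Of 23 unfolded protein response genes SEC61B, a subunit of the translocon, fell by 2.20 (adjusted p = 0.0135) and HYOU1 by 1.29, although other units of HYOU1 ran up to 0.25. These 2 are 8.7% of their list. Of 13 heat shock genes (median -0.64, and -0.08 after quantile normalization) HSPB1 fell by 1.99, HSPA4 by 1.22 and HSPD1 by 1.16. Of 25 proteasome genes (median signal 10.92) 3 fell (12%): PSMB5, the chymotrypsin-like subunit, by 1.92 (adjusted p = 0.0255), PSMB4 by 1.74 and PSMD4 by 1.43. Of all named genes with a signal from 10 to 12, 194 of 982 fell. Of 16 oxidative stress genes 1 (6.25%) fell, NQO1 by 1.09 (adjusted p = 0.0182). Of 23 lysosome and autophagy genes PSAP, prosaposin, fell by 2.01, CTSZ fell by 1.44, CD63 by 1.34 and CTSD by 0.89. Of the heat shock, proteasome, oxidative stress and lysosome genes named here, only CD63 was called with the RP11-161H23.5 controls (-1.10).

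In metabolism, 4 of 26 oxidative phosphorylation genes fell (15.4%, against 8.71% of all named genes), with a median of -1.03 (-0.45 after quantile normalization). The list is bright, with a median signal of 10.24. Among all named genes from 10 to 12, 194 of 982 fell and the median change was -0.86. COX8A, described above, was followed by ATP5PO (-1.25), ATP5PF (-1.04) and SDHD (-0.86), and COX8A alone remained called after quantile normalization. HK2, hexokinase 2 of glycolysis, was one of few listed genes that rose. It was 5.05, 4.79 and 5.16 against 5.77, 6.03 and 5.51, an increase of 0.77 (SE 0.20, limma adjusted p = 0.0336), without overlap, but it was not called against either other set of scrambled arrays (0.31 and 0.37). ANKRD37 fell by 1.56 and GPI by 1.16 in the same list of 23. Of 18 cholesterol genes EBP and SREBF2, the transcription factor of the pathway, each fell by 1.54, and neither remained called after quantile normalization (adjusted p = 0.0677 and 0.0511) or against either other set of scrambled arrays.

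The 21 ribosomal protein genes were the brightest list, with a median signal of 17.43, and 2 fell (9.52%, against 8.71% of all named genes). RPL18 was 18.78, 18.78 and 18.04 against 18.20, 15.09 and 15.48 (-2.28, limma adjusted p = 0.0492), and RPL26 fell by 0.74 and turned to 0.07 after quantile normalization (adjusted p = 0.874). The 18 MYC and ribosome biogenesis genes had a median of -0.52 (-0.10 after quantile normalization), and none passed limma's threshold with all arrays. Without replicate 1, 9 fell, against 28.4% of all named genes. Of 24 spliceosome and hnRNP genes 5 fell (20.8%), led by PCBP1, then HNRNPA2B1 (-1.89, adjusted p = 0.0142), U2AF1, SF3A1 and HNRNPD. Of 22 actin cytoskeleton genes 5 fell (22.7%). The spliceosome and actin lists are bright, with median signals of 11.75 and 11.55, and 194 of 982 named genes from 10 to 12 fell. ACTG1, gamma actin, was 16.40, 16.59 and 16.44 against 15.24, 13.62 and 12.95. PFN1, profilin, fell by 2.31 (adjusted p = 0.00211) and TMSB10, a thymosin, by 2.24 (adjusted p = 0.0101), and both remained called after quantile normalization and against both other sets of scrambled arrays.

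Among 17 genes of RNase H and oligonucleotide binding, XRCC6, the Ku70 subunit of the DNA end-binding complex, rose. It was 12.39, 11.99 and 11.68 against 14.11, 12.91 and 13.55, an increase of 1.5 (SE 0.40, limma adjusted p = 0.0384). It was 2.23 after quantile normalization (adjusted p = 0.00277) and 1.21 without replicate 1, its highest array (adjusted p = 0.0564). It was called higher against the RP11-161H23.5 (1.81) and CYTOR (1.70) scrambled arrays. SFPQ, a paraspeckle protein, fell by 1.06 and its partner NONO by 1.18, and neither remained called after quantile normalization. SFPQ was called lower with the RP11-161H23.5 (-0.77) and CYTOR (-1.38) controls, and NONO with neither (-0.80 and -0.77). These calls are 5.88% of the list higher and 11.8% lower, against 2.85% and 8.71% of all named genes.

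Of 60 markers of other cell types on the array, 30 passed the signal filter: 9 of 17 T and NK cell markers, 6 of 16 myeloid, 6 of 13 erythroid and platelet, and 9 of 14 stromal and epithelial markers. Of these 30 markers 3 fell, a share near the 8.71% of all named genes, and the others were not called. GNLY (-1.35, limma adjusted p = 0.0129) and NKG7 (-0.94, adjusted p = 0.0473) fell, while the median of the 9 T and NK markers was 0.07 (0.20 after quantile normalization). The myeloid marker FCN1 fell from 5.70, 5.71 and 5.55 to 3.62, 3.95 and 3.77 (-1.87, adjusted p = 0.000898). The mean log2 signal of the myeloid markers on the array was 4.15 to 4.40 in the controls and 3.90 to 3.99 with gapmer 1. The groups overlapped for the other marker lists, at 4.32 to 4.53 against 4.15 to 4.37 for T and NK markers, 3.89 to 4.01 against 3.75 to 4.04 for erythroid and platelet markers, and 4.77 to 4.95 against 4.71 to 5.06 for stromal and epithelial markers. Their part in the results above was not tested.

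**Figure D4:**
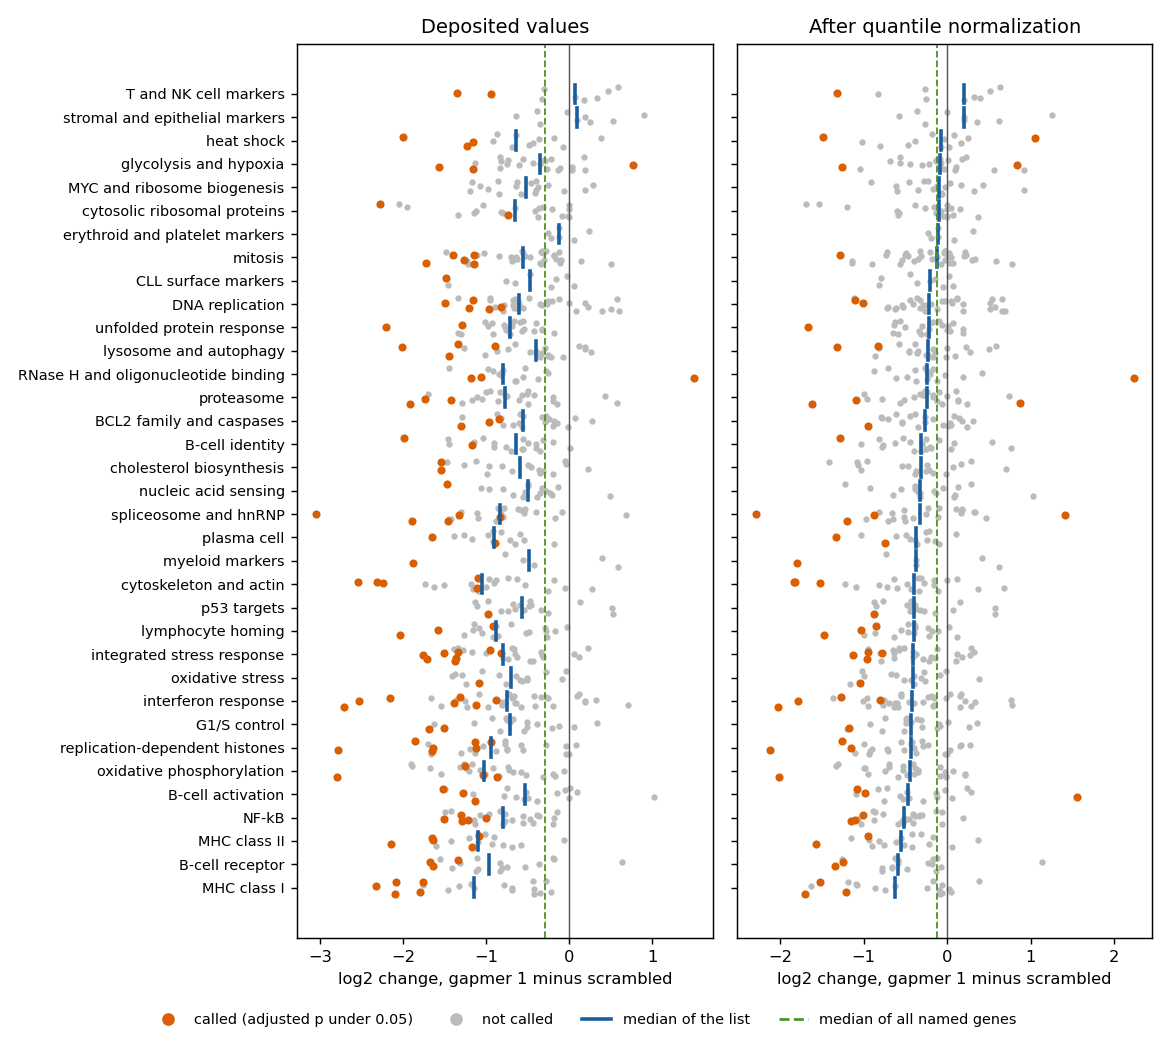
Log2 change of each tested gene (points) in 35 gene lists, gapmer 1 minus scrambled (horizontal axis), for the deposited values (left) and after quantile normalization (right). Orange points were called, blue bars are list medians and the green dashed line is the median of all named genes, -0.29 on the left and -0.12 on the right; the MHC, B-cell receptor and NF-kB lists lie lowest on the right.

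Calls were also counted by gene class, over all tested units with a single symbol, so a gene with several units counts more than once. Of 13644 protein-coding units 184 rose (1.35%) and 1366 fell (10%). Of 806 microRNA units 66 rose (8.19%) and 28 fell (3.47%), with a median change of 0.08. Their median signal was 4.89, below that of 5.91 for protein-coding units. Over all tested units 4.54% rose and 6.28% fell. Long non-coding RNAs had 59 higher (4.49%) and 77 lower (5.86%) calls of 1313 units. Small nucleolar RNAs had 10 (3.94%) and 14 (5.51%) of 254, and pseudogenes 290 (4.94%) and 434 (7.39%) of 5869. The shares of long non-coding and small nucleolar RNAs were near those over all tested units. The direction of these calls was not compared at matched signal.

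The mature sequences of the 5 microRNA genes that led the increases are shown to let their seeds be compared, as RefSeq gives them (build GRCh38.p14), with the seed, bases 2 to 8, in capitals. The sources used here do not say which bases these units read, so a host transcript may be included and the arms are not told apart.
hsa-miR-4740-3p, chr17:81400716-81400737, minus strand: gCCCGAGAggauccgucccugc
hsa-miR-4740-5p, chr17:81400753-81400774, minus strand: aGGACUGAuccucucgggcagg
hsa-miR-6870-3p, chr20:10649636-10649657, minus strand: gCUCAUCCccaucuccuuucag
hsa-miR-6870-5p, chr20:10649672-10649690, minus strand: uGGGGGAGauggggguuga
hsa-miR-6860, chr11:67045683-67045704, plus strand: aCUGGGCAgggcuguggugagu
hsa-miR-3153, chr9:89312274-89312296, plus strand: gGGGAAAGcgaguagggacauuu
hsa-miR-4261, chr2:10192624-10192639, minus strand: aGGAAACAgggaccca
The 7 mature sequences have 7 different seeds. MIR4740 was 5.40, 5.71 and 6.27 in the controls and 8.33, 13.33 and 13.71 with gapmer 1. All gapmer 1 arrays were above the controls, and replicate 1 was far below the other 2. It rose by 6 (SE 1.08, limma adjusted p = 0.0100), the largest increase of a singled-out gene, yet the change was -0.40 against the scrambled arrays of the RP11-161H23.5 experiment and 4.71 against those of the CYTOR experiment. MIR6870 was 4.48, 4.48 and 5.36 against 7.21, 7.86 and 8.27, and rose by 3.01 (SE 0.31, adjusted p = 0.000732). MIR4261 rose by 2.29 (adjusted p = 0.00197). Both stayed higher against the other scrambled arrays, at 1.54 and 2.18 for MIR6870 and 1.44 and 2.09 for MIR4261. MIR6860 rose by 2.64 (adjusted p = 0.0191) and MIR3153 by 2.58 (adjusted p = 0.0311), mainly in replicates 2 and 3. MIR663A fell by 1.95 (adjusted p = 0.0339). None of these 3 was called with the RP11-161H23.5 controls (0.50, 0.36 and -0.09). With the CYTOR controls MIR6860 was called (1.64), and MIR3153 (1.23) and MIR663A (-0.89) were not. The unit of MIR663A is numbered to chromosome 21 while RefSeq places the gene on chromosome 20. The signal may therefore come from a near-identical copy, and no sequence is shown.

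Copies of 7SK RNA, the RNA of the complex that holds back the elongation factor P-TEFb, gave the largest decreases outside protein-coding genes. RN7SKP204 was 15.91 on all 3 scrambled arrays and 12.03, 11.20 and 11.65 with gapmer 1, and fell by 4.28 (SE 0.21, limma adjusted p = 1.6e-05). RN7SKP203 fell by 3.88 (adjusted p = 0.000563). RN7SKP111 was 13.78, 13.70 and 13.61 against 13.21, 8.31 and 8.47 (-3.70, adjusted p = 0.0470), so replicate 1 remained near the controls. Of 182 tested 7SK copies, a family chosen after its values were seen, 26 fell (14.3%) and 8 rose (4.4%), against 8.71% and 2.85% of all named genes. Of these 25 and 8 were still called after quantile normalization, and 17 and 4 with the RP11-161H23.5 controls. These copies and those of U6 and 7SL are near-identical, so a probe may read several of them. RN7SL395P, a 7SL copy, rose by 3.33 (adjusted p = 0.000139), RNU7-136P by 3.10, and RNU6-639P fell by 2.75 (adjusted p = 0.00118). RN7SKP111 (-1.08) and RNU7-136P (1.19) were not called with the RP11-161H23.5 controls.

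The direct comparisons with the other LINC00158 groups found no unit that differed. Gapmer 1 minus gapmer 2 gave 0 calls by limma (0%), with 2866 of 67877 units (4.22%) at an unadjusted p under 0.05 and a lowest adjusted p of 0.999. Gapmer 1 minus the combination gave 0 calls (0%), with 3501 units (5.16%) and a lowest adjusted p of 0.551. A p above the threshold does not show that the groups act alike. Without replicate 1 the lowest adjusted p values were 0.355 and 0.429. The 3 comparisons share the scrambled arrays, so their values are set side by side only. SOX10 was 3.08 with gapmer 1, 3.53 with gapmer 2 and 3.33 with both. PCBP1 was -3.04, -3.27 and -3.25. MIR4740 was 6, 8.11 and 8.16, and IL1RN 1.78, 1.95 and 1.63.

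The gapmer 1 groups of the other experiments have scrambled arrays of their own. With RP11-161H23.5 gapmer 1, MYEOV changed by 3.89, SOX10 by 3.12, CEP170B by 2.02, STYXL2 by 2.63, PCBP1 by -2.14 and RN7SKP204 by -3.38, all called by limma in the fit over 36 arrays, where 5.58% of units rose and 8.02% fell with that gapmer. The differences between the LINC00158 and RP11-161H23.5 effects were 0.05 for MYEOV (SE 0.40, adjusted p = 0.967) and -0.04 for SOX10 (SE 0.35, adjusted p = 0.974). For PCBP1 the difference was -0.90 (SE 0.20, adjusted p = 0.0139). LINC00158 itself changed by -1.15 with RP11-161H23.5 gapmer 1 (adjusted p = 0.0365), and the difference of -1.21 was not called (SE 0.52, adjusted p = 0.198). With CYTOR gapmer 1, SOX10 changed by -1, MYEOV by -0.69 and PCBP1 by 0.61, and LINC00158 by 0.13. The differences from the CYTOR effect were called for SOX10 (4.08, adjusted p = 7.43e-09), PCBP1 (-3.66, adjusted p = 8.45e-13), ISG15 (-3.81, adjusted p = 1.43e-05), HLA-DRB5 (-2.53, adjusted p = 0.000837) and LINC00158 (-2.49, adjusted p = 0.00179).

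The difference from the RP11-161H23.5 effect was called for 1909 of 67895 units (2.81%). Among named genes it was called higher for 176 (0.828%) and lower for 377 (1.77%). The difference from the CYTOR effect was called for 10623 units (15.6%). UTRN was nearly level with RP11-161H23.5 gapmer 1 (0.01), and its difference was -2.44 (SE 0.44, limma adjusted p = 0.0038). ACTG1 differed by -2.32 (SE 0.45, adjusted p = 0.00596). ISG15 changed by -1.25 there, and its difference of -1.46 was not called (adjusted p = 0.117). JAZF1 (0.31) and IL1RN (0.06) were not called there, and their differences were not called either (2.01, adjusted p = 0.0695, and 1.72, adjusted p = 0.140).

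**Figure D5:**
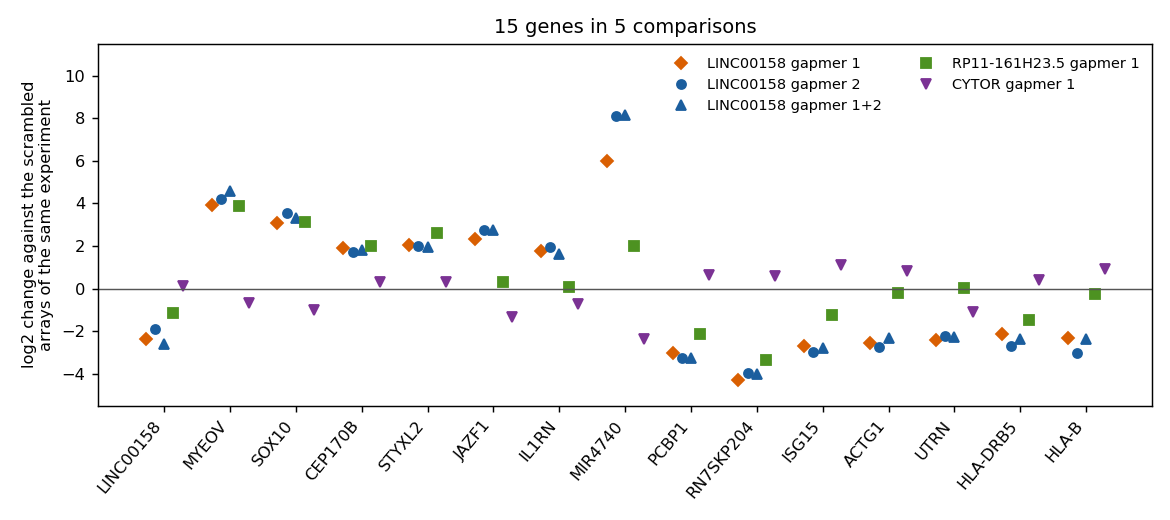
Log2 change (vertical axis) of 15 genes with each of 5 gapmer treatments against the scrambled arrays of the same experiment. Orange diamonds are LINC00158 gapmer 1, blue symbols the other LINC00158 groups, green squares RP11-161H23.5 gapmer 1 and purple triangles CYTOR gapmer 1; SOX10 and MYEOV are high in the first 4 and not in the last, and UTRN is low in the LINC00158 groups while near 0 with RP11-161H23.5 gapmer 1.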

How the data were processed

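The series holds 36 arrays of MEC-1 cells. Per the submitters' processing notes, the authors used Affymetrix Expression Console and RMA, and the deposited values are log2 signals. Their versions and the genome build: not given in the sources used here. Values ran from 1.96 to a ceiling of 19.93. Symbols came from the platform annotation given with the series (36176 units with 1 symbol, 1119 with several, 98455 with none). The 12 arrays of the LINC00158 experiment were fitted as 4 group means in limma 3.58.1 (R 4.3.3), with 8 residual and 3.29 prior degrees of freedom. All 36 arrays were fitted for differences between experiments and for comparisons with the controls of other experiments. The number of arrays limits the precision. Alternatives changed the signal filter, normalization, variance model, arrays and controls. Genes were named by size of change among calls that held in all 3 settings described, plus up to 6 per gene list and the genes near LINC00158. The members, the 35 gene lists and the promoter motifs were chosen with earlier results of these data known. The fit was tested on simulated data. Across 18 same-numbered pairs of arrays, deviations from group means correlated from -0.18 to 0.18.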

Additional observations from a re-analysis of the deposited data

Results flagged for a closer look

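The results below were singled out because the effect of gapmer 1 differed between experiments by limma's interaction test over 36 arrays. Against the RP11-161H23.5 gapmer 1 effect 1909 units differed. The 4 highest named genes were CGI-148P (3.63, adjusted p = 0.00674), RNU7-136P (2.70, adjusted p = 0.0259), ETDB (2.49, adjusted p = 0.00224) and FER1L6-AS2 (2.33, adjusted p = 0.000332). None of them was called with the RP11-161H23.5 controls (0.16, 1.19, -0.27 and 0.52). With LINC00158 gapmer 1 itself, CGI-148P changed by 2.28 in replicate 1 and 1.67 in replicates 2 and 3. ETDB changed by 0.73 and 0.985. For both genes these changes are smaller than the difference. The 4 lowest were RN7SKP273 (-3.03, adjusted p = 0.00134), C1D (-2.59, adjusted p = 0.00898), SNORD63 (-2.50, adjusted p = 0.0319) and UTRN (-2.44, adjusted p = 0.0038). RN7SKP273 and SNORD63 were not called with LINC00158 gapmer 1 itself (adjusted p = 0.129 and 0.114), and RN7SKP273 changed by 2.26 with RP11-161H23.5 gapmer 1. FER1L6-AS2 was 3.15, 2.91 and 3.81 on the scrambled arrays and 5.02, 5.10 and 5.19 with LINC00158 gapmer 1.

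Against the CYTOR gapmer 1 effect 10623 units differed. LINC00158 differed by -2.49 (adjusted p = 0.00179). The 4 highest named genes were MIR4740 (8.37, adjusted p = 1.64e-05), TRBJ1-3 (6.77, adjusted p = 0.00321), TRAJ14 (5.09, adjusted p = 0.0094) and RN7SL395P (4.64, adjusted p = 8.82e-12). The 4 lowest were RN7SKP204 (-4.88, adjusted p = 1.82e-13), RN7SKP203 (-4.83, adjusted p = 6.69e-08), RN7SKP55 (-4.55, adjusted p = 0.00733) and MAP2K2 (-4.29, adjusted p = 0.000207). TRBJ1-3, a joining segment of the T-cell receptor beta locus, was 9.67, 10.18 and 11.94 on the scrambled arrays and 10.77, 17.42 and 17.39 with LINC00158 gapmer 1, so replicate 1 stayed within the control range. TRAJ14 was 8.21, 8.31 and 9.85 against 8.91, 14.36 and 14.72. Neither was called against the scrambled arrays (adjusted p = 0.0633 and 0.0654). RN7SKP55 was not called against them either, and it changed by -0.40 in replicate 1 and by -4.24 in replicates 2 and 3.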

How the results depend on the processing

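The count of units called between gapmer 1 and scrambled moved with the arrays used and with the fit. From 7351 (3085 higher, 4266 lower) it went to 4795 (1763 higher) with the 75th percentile as filter, 16532 (5802 and 10730) with array weights, 13297 (5160 and 8137) with all 36 arrays in one fit, 164 (94 and 70) with only the 6 arrays, and 12548 (6904 and 5644) with quantile normalization and without gapmer 1 replicate 1. Quantile normalization alone left 2453 lower. Leaving out 1 array gave 2133 to 17407 units, 1036 to 5688 higher and 1097 to 11719 lower, and the highest count of each came without gapmer 1 replicate 1. The change of LINC00158 kept its call except in the fit on the 6 arrays (-2.36, adjusted p = 0.0650), and leaving out 1 array moved it from -2.58 to -1.93. It shrank to -1.23 with the RP11-161H23.5 controls and -1.52 against the CYTOR ones, still called. The difference from the RP11-161H23.5 effect went from 1909 units to 969 with the 75th percentile, 7034 with array weights, 58 with only the groups compared, 5051 with quantile normalization and without replicate 1, and 825 to 6687 with 1 array left out. The difference from the CYTOR effect went from 10623 to 4426 with only the groups compared, and 7469 to 15120 with 1 array left out. The comparisons of gapmer 1 with gapmer 2 and with the combination gave 0 calls by limma under every alternative run, with 1789 to 4783 and 2694 to 6050 units at an unadjusted p under 0.05 among the fits of 67877 units.

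Same-numbered arrays correlated by -0.18 to 0.18 in their deviations from group means, over 0.1 in 2 of 18 pairs. Arrays of different numbers were not compared in this way, so these values cannot decide whether the numbers pair the arrays. With the replicate number as a block 6198 units were called (2527 higher, 3671 lower). Of 156 named genes 139 were called. Over the alternatives 2125 values kept the side of the threshold, 877 were no longer called and 44 became called. For called genes 18 values turned. Changes of direction in genes that were not called were not counted as turned and lie among the 2125. RPL13AP7, for example, was at -1.02 and at 0.36 with the RP11-161H23.5 controls, called in neither. With the scrambled arrays of the RP11-161H23.5 experiment, RFX3 turned to -0.11, MIR4740 to -0.40, ETDB to -0.27, SDC1 to 0.07, PSMB10 to 0.12, POLD1 to 0.37, POLA2 to 0.44, FEN1 to 0.08, SLC3A2 to 0.043, MTHFD2 to 0.073, SREBF2 to 0.21, ANKRD37 to 0.75 and CTSD to 0.11. With those of the CYTOR experiment, TNFRSF8 turned to 0.29 and FEN1 to 0.41. RPL26 turned to 0.067 with quantile normalization, and without replicate 1 as well RPL26 turned to 0.22 and HNRNPD to 0.17. The cause of these changes was not tested.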

Other observations

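Units that moved in gapmer 1 replicate 1 nearly as much as in replicates 2 and 3 were set beside the RP11-161H23.5 gapmer 1 comparison, which shares no array with this one. Only units that also passed the signal filter over 36 arrays enter here, 16816 of 17407. Of 1543 higher units with a share of 0.75 or more, 525 (34%) were called higher there and 20 lower, against 145 of 1676 (8.65%) and 36 for units with a share under 0.25. Of 1653 lower units with a share of 0.75 or more, 554 (33.5%) were called lower there, against 429 of 6040 (7.1%). Over all units 5.58% were called higher and 8.02% lower with RP11-161H23.5 gapmer 1. The split by share was made after seeing the data, and the difference was not tested.

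Of 31 tested genes with an HLA name, a family chosen after its values were seen, 12 fell (38.7%) and 1 rose (3.23%) with gapmer 1, with a median change of -1.08, against 8.71% and 2.85% of all named genes and a median of -0.29. After quantile normalization 5 fell and 1 rose, against 4.81% and 3.41% of all named genes. Of 782 copies of U6 RNA 29 rose (3.71%) and 34 fell (4.35%), with a median of -0.02.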
